A study of Rattus norvegicus with 6 samples.

Results

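Proteins that enter the endoplasmic reticulum are folded, modified and, where folding fails, returned to the cytosol and degraded. The genes described here encode that machinery: the entry channel, the chaperones and oxidoreductases of the lumen, the degradation route known as ERAD, and the sensors Ern1 and Atf6 with the transcription factor Xbp1, which adjust it during the unfolded protein response. 32 genes were chosen by name, and 31 of them had a value, out of 18166 genes with a value in all. Each of the 31 was represented by 1 probe set. For Derl2 no expression value is given here, and it enters the promoter search alone.

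Gene expression was measured on 6 arrays of NRK-52E, a rat line with the character of tubule epithelium, grown in every case in DMEM with fetal calf serum. The 3 control arrays and the 3 NICD1 arrays are labelled by title, and NICD1 denotes overexpression of the Notch1 intracellular domain, the fragment that Notch1 releases to the nucleus on cleavage, with the pINDUCER21 vector system. The labels do not say what the control cells carried or whether an inducer was added. Values are log2 of RMA intensity, and a difference of 1 is a doubling. Levels of different genes come from different probes and are not set against each other.

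Array medians lay between 57.5 and 60.1 on the linear scale. Among the controls, replicate 1 stood slightly apart, with r of 0.993 and 0.992 to the other controls across probe sets, which are not independent, against 0.995 between those. Its values were close to the r of 0.993 to 0.994 among the NICD1 arrays. All 8 calls below were also made without control replicate 1. Notch1 rose by 0.66 (SE 0.081; limma adjusted p = 0.00181; exact two-sided permutation p = 0.1, the smallest that 3 arrays against 3 allow). Of 9 tubule epithelial markers, 5 (Krt18, Cdh1, Epcam, Cdh16 and Pax8) lay in both groups below a background of 5.64, the 95th percentile of 262 chemosensory receptor genes. The other 4 lay above it, and of these Krt8 and Cdh2 rose. The summed linear intensity of the 9 was 1700 to 1780 in control and 3350 to 3520 in NICD1 arrays. Most of that sum came from Krt8, with means of 10.36 in control and 11.44 in NICD1 arrays. The 7 markers other than Krt8 and Cdh2 did not pass. Of the 5 leukocyte markers 4 lay below background in both groups and Cd68 rose, and their sum was 188 to 197 in control and 210 to 223 in NICD1 arrays. Of the 3 endothelial markers 2, Cdh5 and Flt1, lay below background in both groups. Tek fell, and Flt1 rose from 5.05 to 5.41 while below background. The endothelial sums were 258 to 280 in control and 209 to 227 in NICD1 arrays. Of the 5 fibroblast and pericyte markers 2 lay below background and Col1a1 rose, with sums of 526 to 620 and 704 to 748. The part of these markers in the results below was not tested. Fewer expressing cells and less RNA per cell cannot be told apart in such samples.

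The regulatory sequences of this gene set are shown first, because some of them carry an element through which the unfolded protein response acts on its targets. The ER stress response element (ERSE) consists of CCAAT, 9 bases of any kind and CCACG. NF-Y binds its first part and Atf6 or Xbp1 its last. ERSE-II, a compact form, consists of ATTGG, 1 base of any kind and CCACG. RefSeq promoter windows of the GRCr8 build, from 250 bases before to 50 bases after a gene start, were found for 25 of the 32 genes and searched on both strands. An ERSE was found in 8 of these 25 genes, against 0.0657% of all 33469 windows. ERSE-II was found in 3 genes, against 0.0508% of all windows. The following stretches, printed 5′ to 3′ in the direction of the gene with the motif in capitals, show the ERSE nearest the start in the chaperone genes Hspa5, Hsp90b1, Calr and Dnajc3 and in Xbp1. They lie at chr3:38452953-38453011 (plus strand), chr7:23012327-23012385 (minus), chr19:40213117-40213173 (plus), chr15:102432514-102432572 (plus) and chr14:84604538-84604596 (plus), in that order.
Hspa5: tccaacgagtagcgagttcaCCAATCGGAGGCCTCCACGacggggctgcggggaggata
Hsp90b1: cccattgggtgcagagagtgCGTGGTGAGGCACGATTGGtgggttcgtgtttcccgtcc
Calr: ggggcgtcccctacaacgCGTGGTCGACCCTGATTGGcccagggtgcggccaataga
Dnajc3: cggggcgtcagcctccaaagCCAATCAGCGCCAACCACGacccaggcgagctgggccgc
Xbp1: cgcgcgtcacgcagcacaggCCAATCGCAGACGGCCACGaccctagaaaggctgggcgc

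The element reads on the opposite strand in Hsp90b1 and Calr. Hsp90b1 held a second ERSE further upstream, and Creld2, Canx and Derl3 held 1 each. The ERSE-II genes were Hyou1, Dnajb11 and Herpud1. The stretches of Hyou1 (chr8:53602671-53602824, plus strand) and Herpud1 (chr19:10614801-10614911, minus strand) are shown because each also carries another stress motif. In Hyou1 an unfolded protein response element (UPRE, TGACGTGG) overlaps the first of 2 copies of ERSE-II. In Herpud1 the first capitals are a C/EBP-ATF response element (CARE, TGATGNAA, here on the opposite strand), the type of site bound by Atf4, and the second are ERSE-II.
Hyou1: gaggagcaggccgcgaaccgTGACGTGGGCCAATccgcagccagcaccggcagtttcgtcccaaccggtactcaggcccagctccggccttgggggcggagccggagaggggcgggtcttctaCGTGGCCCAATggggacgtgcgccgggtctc
Herpud1: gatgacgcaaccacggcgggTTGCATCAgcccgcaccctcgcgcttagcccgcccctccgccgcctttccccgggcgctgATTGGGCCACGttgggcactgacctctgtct

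UPRE was found in 2 of the 25 genes, Hyou1 and Dnajc10, against 0.595% of all windows, and CARE in Herpud1 alone, against 3.98%. The core site of Rbpj, the DNA-binding partner of the Notch intracellular domain (GTGGGAA), was found in 4 genes, Edem2, Edem3, Dnajc10 and Derl2, against 6.29% of all windows. The site of Edem3 is shown (chr13:66408537-66408583, plus strand). It was picked after the values were seen, since Edem3 rose, while Edem2 and Dnajc10 did not pass and Derl2 had no expression value. A match describes the letters and is not evidence that a factor binds there.
Edem3: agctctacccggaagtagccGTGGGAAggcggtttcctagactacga

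Calls were made in limma at an adjusted p under 0.05, with all genes in the Benjamini-Hochberg adjustment. Among the 31 genes with a value there were 6 rises and 2 falls, and 23 genes did not pass. The rises were those of Ern1, Derl1, Atf6, Dnajb9, Edem3 and Herpud1, and the falls those of Sdf2l1 and Pdia6. Among all genes 7.45% rose, 7.22% fell and 14.7% did either, against 19.4%, 6.45% and 25.8% of the measured members. The share that rose was thus above the share over all genes, and the share that fell was close to it. The members were chosen with earlier results of these data known, and the difference in shares was not tested. Of all 18166 genes, 6401 lay below background in both groups, against 1 of the 31 members. The shares over all genes thus include many dim genes, and no share over expressed genes alone was computed. With the dimmest 30% of genes left out, calls numbered 3216, against 2666 over all 18166 genes, and 50.1% of the 3216 were rises. The share called among those brighter genes was thus higher than 14.7%, and part of the contrast with the members reflects the dim genes. The median log2 change was 0.03 over the members and 0.01 over all genes, and every member's change lay between -0.39 and 0.39. By role, 5 of the 11 sensor and degradation genes rose and none of these fell, while 1 of the 20 entry and folding genes rose and 2 fell. The roles were assigned with earlier results known, and the difference between them was not tested.

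**Figure D1:**
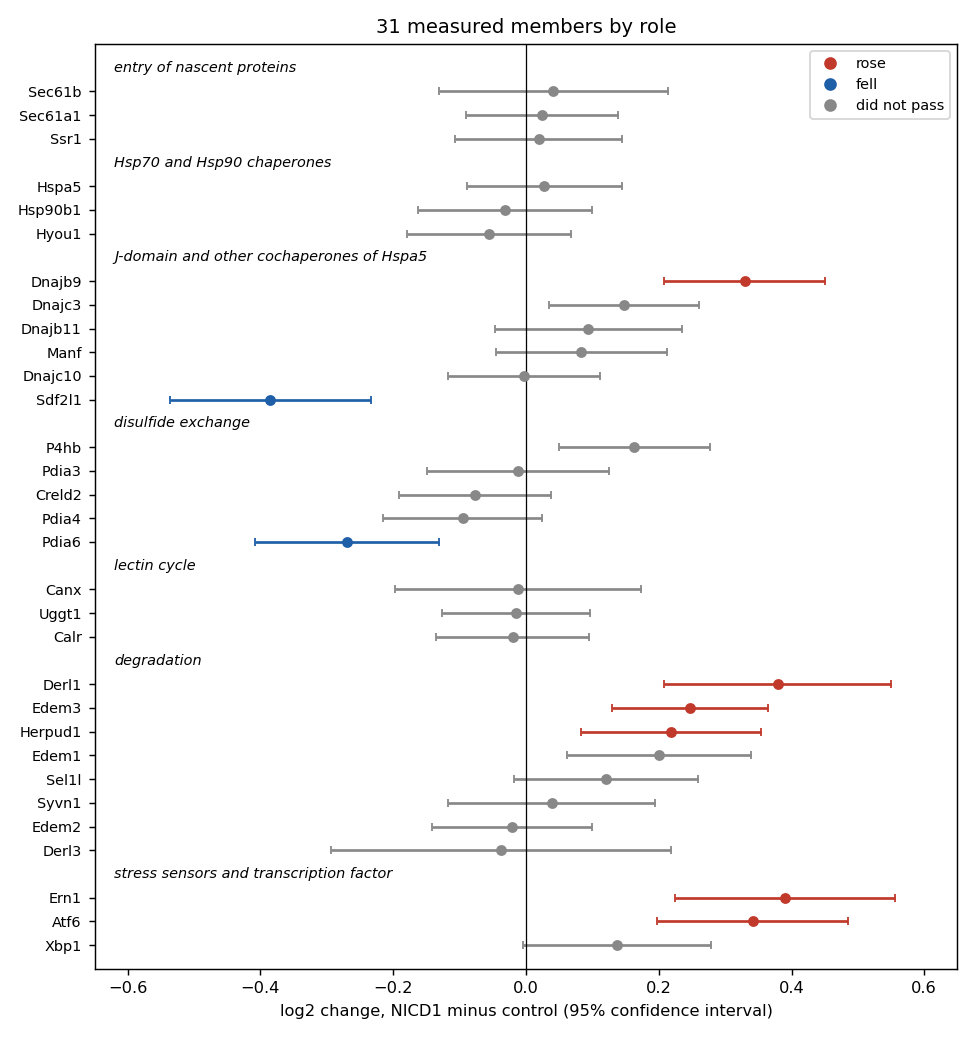
Log2 change of each of the 31 measured genes, NICD1 minus control, with its 95% confidence interval from limma, grouped by role (red rose, blue fell, grey did not pass). The red points lie among the sensors, the degradation genes and Dnajb9, and the intervals of all the entry, Hsp70 and Hsp90 and lectin genes include 0.

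Both membrane sensors of the set were higher in NICD1 cells. Ern1 (Entrez gene 498013) encodes the kinase and endoribonuclease IRE1α, which splices Xbp1 mRNA. It measured 9.20, 8.99 and 9.12 in control replicates 1 to 3 and 9.47, 9.56 and 9.45 in NICD1 replicates 1 to 3. The groups did not overlap, and Ern1 rose by 0.39 (SE 0.070), 1.31-fold (limma adjusted p = 0.0101). Atf6 (Entrez gene 304962), a transcription factor held in the membrane until it is cleaved in the Golgi, measured 10.83, 10.96 and 10.97 in control and 11.30, 11.28 and 11.21 in NICD1 arrays. Every NICD1 array lay above every control array, and Atf6 rose by 0.34 (SE 0.061), 1.27-fold (limma adjusted p = 0.00964).

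Xbp1, the transcription factor made from the mRNA that Ern1 splices, did not pass. Its values were 10.81, 10.79 and 10.76 in control and 10.83, 10.98 and 10.96 in NICD1 arrays. The groups were separate, but NICD1 replicate 1 lay only just above the controls, and the change was 0.14 (95% confidence interval -0.0045 to 0.28; limma adjusted p = 0.202). A value per gene does not tell the spliced from the unspliced Xbp1 mRNA.

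Among the 8 measured degradation genes 3 rose, 0 fell and 5 did not pass. Derl1 (Entrez gene 362912), a membrane protein of the retrotranslocation complex, measured 9.84, 10.07 and 10.01 in control and 10.40, 10.32 and 10.34 in NICD1 arrays. Control replicate 1 was the low array, the groups did not overlap, and Derl1 rose by 0.38 (SE 0.072), 1.30-fold (limma adjusted p = 0.0131). Without control replicate 1 the change was 0.31 and still passed (limma adjusted p = 0.0181), while without NICD1 replicate 1 it did not (0.0530).

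The mannosidase-related Edem3 (Entrez gene 289085), which acts on the glycans of misfolded glycoproteins, measured 10.17, 10.16 and 10.20 in control and 10.40, 10.46 and 10.42 in NICD1 arrays. The arrays of each group lay close together and the groups were separate, with a rise of 0.25 (SE 0.050), 1.19-fold (limma adjusted p = 0.0168). Its call ended without NICD1 replicate 2 (0.0712), NICD1 replicate 3 (0.0593) or control replicate 2 (0.0593). Its relative Edem1 measured 11.47, 11.53 and 11.49 in control and 11.62, 11.78 and 11.69 in NICD1 arrays. These groups did not overlap either, but the change of 0.20 (95% confidence interval 0.06 to 0.34) did not pass (limma adjusted p = 0.0678). Edem2, the third of this family, had a change of -0.02 (95% confidence interval -0.14 to 0.10).

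Herpud1 (Entrez gene 85430), a membrane protein with a ubiquitin-like domain that joins the Syvn1 complex, measured 9.30, 9.17 and 9.20 in control and 9.45, 9.48 and 9.40 in NICD1 arrays. The groups did not overlap, and Herpud1 rose by 0.22 (SE 0.057), 1.16-fold (limma adjusted p = 0.0458). That call stood just inside the threshold and ended when any array other than control replicate 1 was left out (0.0884 to 0.146).

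The core ligase of this route did not pass. Syvn1, the ubiquitin ligase also called Hrd1, had a change of 0.04 (95% confidence interval -0.12 to 0.20; limma adjusted p = 0.776), and its adaptor Sel1l one of 0.12 (-0.02 to 0.26; limma adjusted p = 0.249). For both genes the highest control array, control replicate 1, lay within or above the NICD1 values, at 9.74 for Syvn1 and 9.90 for Sel1l. Derl3 lay below background in both groups, at 5.01 ± 0.17 in control and 4.98 ± 0.14 in NICD1 cells (SD, n = 3 each).

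**Figure D2:**
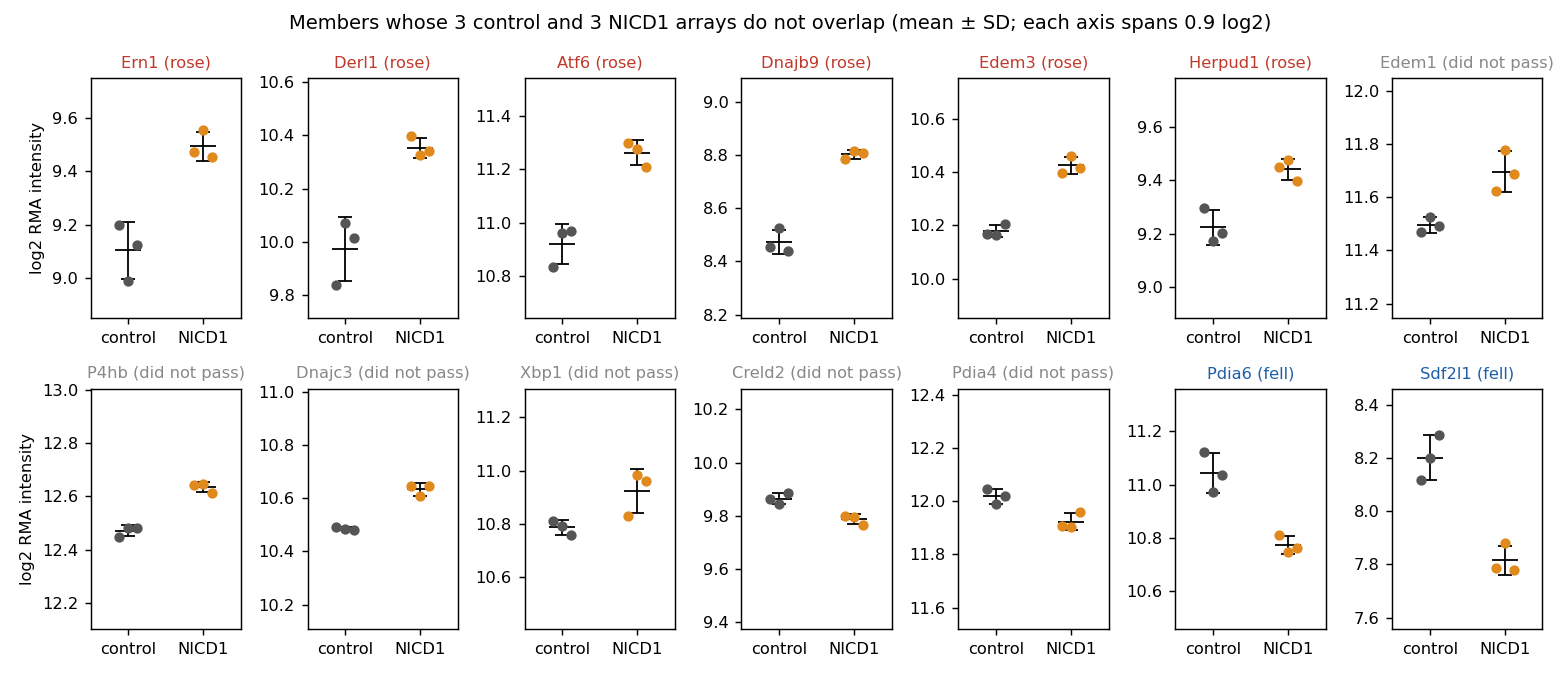
Log2 RMA intensity on each array for the 14 genes whose 3 control (grey) and 3 NICD1 (orange) arrays did not overlap, with mean and SD, each panel spanning the same range. The group means differ by 0.22 to 0.39 in the 8 panels titled rose or fell and by 0.08 to 0.20 in the others.

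Separate groups were more common than calls. The NICD1 arrays lay wholly above the controls for 10 of the 31 genes, against 17.0% of all genes, and wholly below for 4, against 15.7%. Besides the called genes these were Edem1, P4hb, Dnajc3 and Xbp1 above, and Pdia4 and Creld2 below. Edem1, P4hb and Dnajc3 rose when the dimmest genes were left out or an intensity trend was fitted, which brought the rises to 9 in either case. Calls over all genes grew as well under these settings, from 2666 to 3571 with the trend, of which 49.4% were rises. Without the dimmest genes they numbered 3216 among fewer genes, of which 50.1% were rises. The 9 rises are therefore not to be set against the 7.45% of the main fit.

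Among the 6 partners of Hspa5, the abundant Hsp70 chaperone of the lumen also called BiP, 1 rose, 1 fell and 4 did not pass. Dnajb9 (Entrez gene 24908), a J-domain cochaperone also called ERdj4, measured 8.45, 8.52 and 8.44 in control and 8.78, 8.81 and 8.81 in NICD1 arrays. The NICD1 arrays were nearly identical and all above the controls, and Dnajb9 rose by 0.33 (SE 0.051), 1.26-fold (limma adjusted p = 0.00536). Sdf2l1 (Entrez gene 680945), a lumenal protein that works with the J-domain cochaperones, measured 8.12, 8.20 and 8.29 in control and 7.79, 7.88 and 7.78 in NICD1 arrays. Every NICD1 array lay below every control, and Sdf2l1 fell by 0.39 (SE 0.064; limma adjusted p = 0.00717).

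Dnajc3, the J-domain protein also called p58IPK, measured 10.49, 10.49 and 10.48 in control and 10.65, 10.61 and 10.65 in NICD1 arrays. The controls differed by 0.01 and lay apart from the NICD1 arrays, but the change of 0.15 (95% confidence interval 0.03 to 0.26) did not pass (limma adjusted p = 0.0947). Dnajb11, also called ERdj3, and Manf, a small secreted protein that binds Hspa5, had changes of 0.09 and 0.08. Dnajc10, which joins a J domain to oxidoreductase domains, had a change of -0.0034 (95% confidence interval -0.12 to 0.11).

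The large chaperones gave narrow intervals around 0. Hspa5 measured 13.06, 13.06 and 13.02 in control and 13.04, 13.09 and 13.09 in NICD1 arrays. The groups overlapped, and the change was 0.03 (95% confidence interval -0.09 to 0.14; limma adjusted p = 0.789). Hsp90b1, the Hsp90 of the lumen, had a change of -0.03 (-0.16 to 0.10), and Hyou1, a large Hsp70 relative that exchanges nucleotide on Hspa5, one of -0.06 (-0.18 to 0.07). The upper bounds of all 3 intervals lay below the values of Dnajb9, Atf6 and Ern1, although these differences between genes were not tested.

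Of the 5 genes grouped with disulfide exchange 1 fell and 4 did not pass. Pdia6 (Entrez gene 286906), an oxidoreductase also called P5, measured 11.12, 10.97 and 11.04 in control and 10.81, 10.75 and 10.76 in NICD1 arrays. The groups were separate, and Pdia6 fell by 0.27 (SE 0.059; limma adjusted p = 0.0228). The call ended without control replicate 3 (0.0665) or any 1 of the NICD1 replicates (0.0557 to 0.0840). The founding member of this family, P4hb or protein disulfide isomerase, measured 12.45, 12.48 and 12.48 in control and 12.64, 12.65 and 12.61 in NICD1 arrays. It was thus higher on each NICD1 array, but the change of 0.16 (95% confidence interval 0.05 to 0.28) did not pass (limma adjusted p = 0.0697). Pdia4 had a change of -0.10 (-0.21 to 0.02) and Creld2, a cysteine-rich lumenal protein, one of -0.08 (-0.19 to 0.04). Pdia3, the oxidoreductase that works with the lectin chaperones, had one of -0.01 (-0.15 to 0.12).

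None of the 3 lectin cycle genes and none of the 3 entry genes passed (limma), also not at an unadjusted p under 0.05. Calreticulin, Calr, had a change of -0.02 (95% confidence interval -0.14 to 0.09), and Uggt1, the glucosyltransferase that returns unfolded glycoproteins to the lectins, one of -0.02 (-0.13 to 0.10). Calnexin, Canx, varied most among the controls of these genes, at 11.75, 11.87 and 12.03 against 11.92, 11.85 and 11.85 in NICD1 arrays. The NICD1 arrays lay within the range of the controls, and the interval of -0.20 to 0.17 was wider than that of Calr. Sec61a1, the channel through which nascent chains enter, had a change of 0.02 (-0.09 to 0.14), its partner Sec61b one of 0.04 and Ssr1, a subunit of the associated TRAP complex, one of 0.02.

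Set beside the promoter sequences above, 0 of the 8 genes with an ERSE passed in limma, where 14.7% of all genes did, and the count was 1 at an unadjusted p under 0.05, Dnajc3. Their median change was -0.02 and their range -0.08 to 0.15. A count of 0 among 8 genes lies near the share over all genes, and the motif classes were not tested against each other. Of the 3 genes with ERSE-II, Herpud1 rose, and Dnajb11 (0.09) and Hyou1 (-0.06) did not pass. Of the 13 genes with a window that held neither, Dnajb9 and Edem3 rose and Sdf2l1 fell, with a median of 0.04. Only exact matches inside the window were counted. These 13 genes may therefore still carry a variant of either element, or a copy outside the window. Ern1, Derl1, Atf6, Pdia6, Manf, Pdia3 and Sec61a1 had no window and were not searched. Of these 7 genes 3 rose and 1 fell, and whether they carry an ERSE is not known here.

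**Figure D3:**
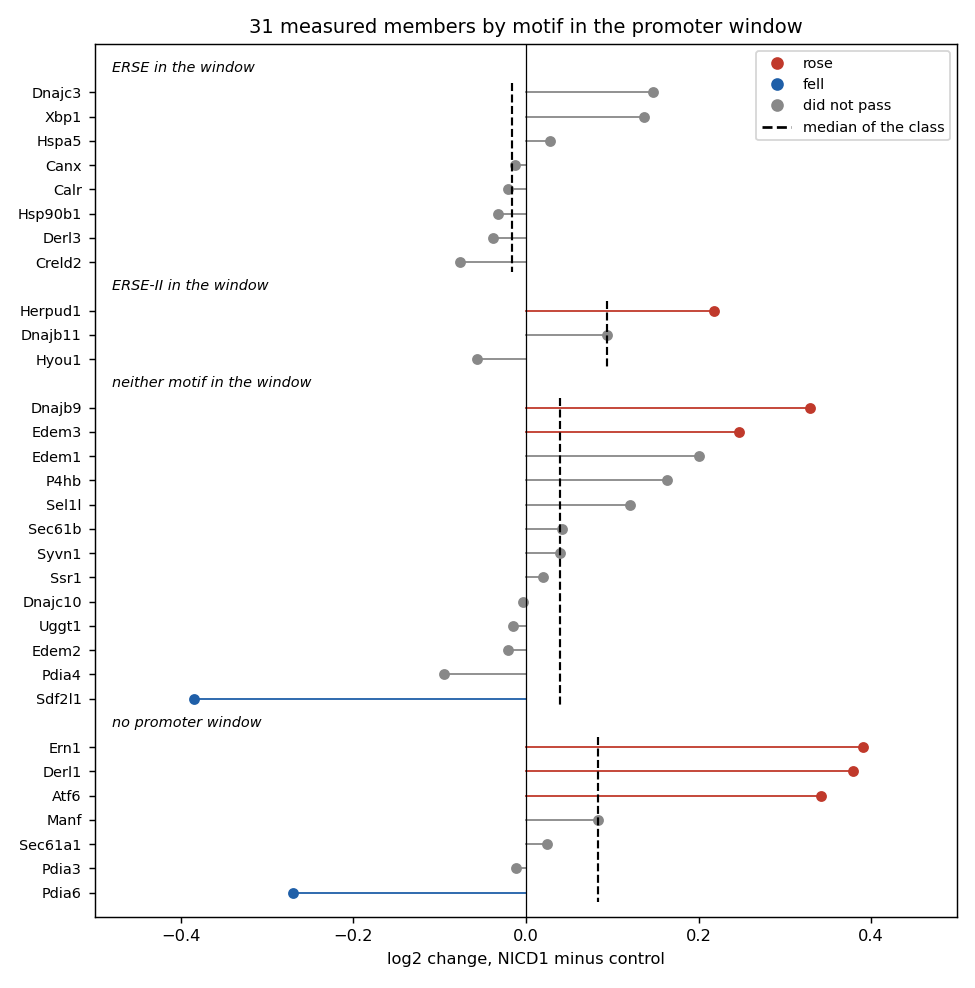
Log2 change, NICD1 minus control, of the 31 measured genes by the motif in their promoter window (dashed line, median of the class; red rose, blue fell, grey did not pass). The 8 genes with an ERSE lie between -0.08 and 0.15, and the called genes lie in the other classes. Of the called genes, 3 that rose and 1 that fell had no promoter window and were not searched.

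Genes related to this machinery were counted from 9 lists with 177 measured genes, of which 15 rose (8.47%, against 7.45% of all genes) and 8 fell (4.52%, against 7.22%). Of the 15 rises 8 were in 1 list, that of the ATF4 and CHOP (Ddit3) arm. The other 8 lists gave 7 rises (4.32%) and 8 falls (4.94%) among 162 genes. The 26 genes of translocation, signal peptidase and oligosaccharyltransferase gave 0 rises and 1 fall, that of Sec62 (-0.29), a membrane protein that assists Sec61. Of 30 other oxidoreductases, isomerases and chaperones 2 rose and 0 fell. Ero1a, the oxidase that recharges P4hb, measured 11.12, 11.23 and 11.10 in control and 12.28, 12.23 and 12.25 in NICD1 arrays. The groups lay far apart, and Ero1a rose by 1.10 (SE 0.056), 2.15-fold (limma adjusted p = 3.32e-05), a change outside the range of the 31 genes. The second rise was that of the J-domain gene Dnajc25 (0.26).

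Of 32 further degradation genes 1 rose, Dnajb12 (0.21), and 1 fell, Fam8a1 (-0.23), a cofactor of Syvn1. Vcp, the ATPase that extracts substrates, had a change of 0.00 (95% confidence interval -0.12 to 0.12). Of 9 genes of N-glycan trimming 1 fell, the mannosidase Man1a1, by 0.89 (SE 0.070; limma adjusted p = 0.000219). Of 17 other sensor and transcription factor genes 1 rose and 1 fell. Creb3l1, a membrane-bound factor related to Atf6, measured 7.19 ± 0.04 in control and 8.16 ± 0.05 in NICD1 cells (SD, n = 3 each) and rose by 0.97 (SE 0.054), and Atf6b, the close relative of Atf6, fell by 0.21 (limma adjusted p = 0.0494). The third sensor of the response, Eif2ak3 or PERK, had a change of 0.13 (95% confidence interval -0.01 to 0.26; limma adjusted p = 0.222).

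The 15 genes of the ATF4 and CHOP arm act mostly outside the reticulum. They gave 8 rises and 0 falls, with a median of 0.35, and the signal behind the rises was not tested. Their largest rises, in Vldlr (1.59), Slc7a11 (1.42), Ddit4 (1.32) and Trib3 (1.10), lay above the highest change of the 31 genes, while Atf4 itself (0.11) and Ddit3 (-0.18) did not pass. Of 28 genes of export and retrieval 3 rose and 1 fell. Kdelr3, a receptor that returns lumenal proteins with a KDEL-type end, rose by 0.51 (SE 0.062; limma adjusted p = 0.00158). Mcfd2, a cargo receptor subunit, rose by 0.29 and the coat subunit Sec31a by 0.30, and Ergic1 (-0.26) fell. Of 13 calcium genes the release channel Itpr1 fell by 0.62 (SE 0.065), and of 7 turnover receptor genes Retreg2 (-0.30) and Calcoco1 (-0.25) fell. The calls of Sec62, Fam8a1 and Dnajb12 ended without any array other than control replicate 1. That of Dnajc25 ended without any array other than control replicate 3, that of Ergic1 without any array other than control replicate 2, and that of Atf6b without any array. Sec31a did not pass without NICD1 replicates 1 or 2 or control replicates 2 or 3, and Calcoco1 without NICD1 replicates 1 or 3 or control replicates 2 or 3.

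**Figure D4:**
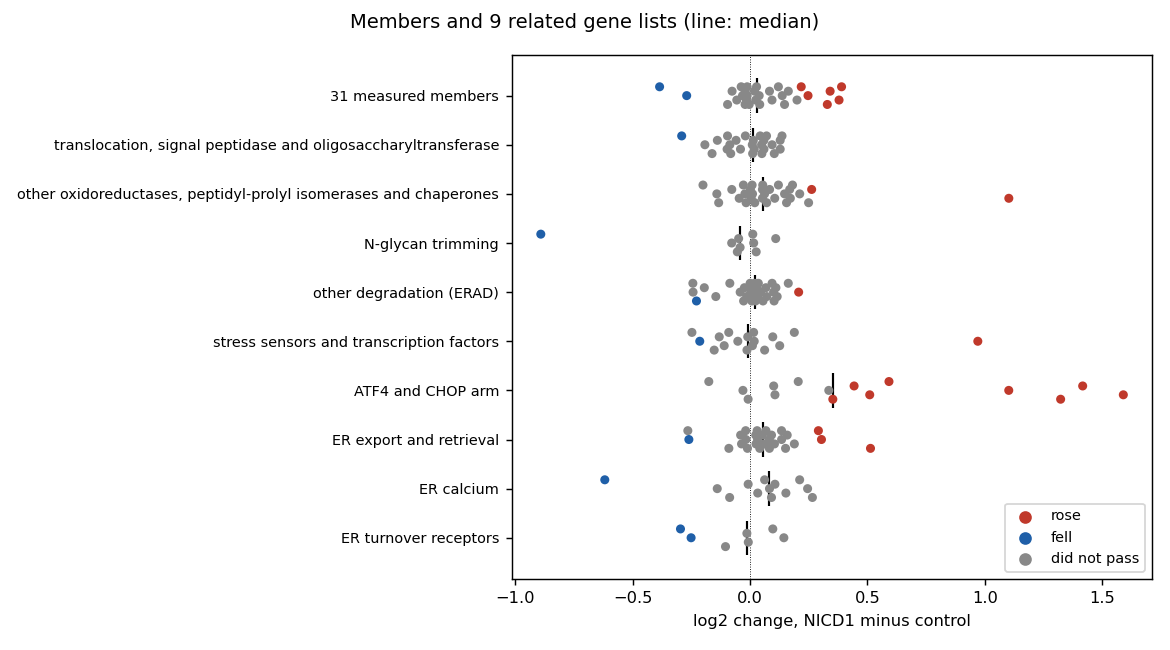
Log2 change, NICD1 minus control, of the 31 genes and of 9 related lists (1 point per gene, black line the median, red rose, blue fell, grey did not pass). The 31 genes spread from -0.39 to 0.39, and the genes of the ATF4 and CHOP arm reach 1.59.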

How the data were processed

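The deposited intensity values, 1 per probe set and array on a linear scale, came from the authors' RMA run in Affymetrix Expression Console, as the submitters' processing notes and the labels state. RMA equalises the distribution of values between arrays, so a shift shared by most genes would be removed. The sources used here give no detection calls, array type or genome build.

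The platform annotation gave 1 symbol for 18511 of the 36685 probe sets and several for 575. Log2 was taken with no pseudocount, and probe sets were averaged per symbol. Groups came from the sample titles. They were compared over all 18166 genes with limma 3.58.1 in R 4.3.3 (lmFit and eBayes, group as the single term, two-sided, Benjamini-Hochberg). All intervals of single genes are 95% intervals of that fit. The labels do not describe replicates as separate cultures. The p-values therefore reflect only how far these samples scatter, which may be technical.

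In a simulation over 18166 genes, 67 genes were given a log2 change of 0.25, 67 a change of 0.5 and 66 a change of 1. Recovered were 7.5% of those given 0.25, 83.6% of those given 0.5 and 100% of those given 1. The simulation made 134 calls, against 2666 in the data. Its Benjamini-Hochberg cutoff was therefore stricter, and these shares do not measure the sensitivity of the real comparison to small changes.

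The members and lists were chosen with earlier results of these data known. Named beside the members were Notch1 and, in each other list, up to 3 called genes with the smallest adjusted p. Vcp, Eif2ak3, Atf4, Ddit3, Slc7a11, Ergic1 and the markers were named as examples of their lists after their values were seen. The alternatives tried were a threshold of 0.01, omission of each array or of the dimmest 30% of genes, array weights, a replicate block, the brightest probe set per gene, median centring, an eBayes prior with intensity trend and robust fit, and a second quantile normalisation. Motifs were searched with Python 3.11.15 and figures drawn with matplotlib 3.10.9.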

Additional observations from a re-analysis of the deposited data

How the results depend on the processing

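The number of arrays limits the precision. Dnajb9, Atf6 and Sdf2l1 kept their call and direction under all 14 alternatives, and Ern1 under all but the threshold of 0.01. Not all of these could alter a result. Each member had 1 probe set, so taking the brightest left its values unchanged. The threshold of 0.01, the replicate block, the trend fit and the omission of dim genes leave the log2 change as it is. Direction could not differ under those settings. The members that rose numbered 2 at that threshold, and from 4 to 6 without single arrays. Those that fell numbered 1 at that threshold and 1 with the replicate block, and 1 to 2 without single arrays. Herpud1 also did not pass after a second quantile normalisation (limma adjusted p = 0.0502). In the other lists together the rises numbered 31 with an intensity trend and 24 without the dimmest genes, and 11 to 18 without single arrays. The falls numbered 16 and 14 under the first 2 of these settings, 3 at the threshold of 0.01 and 3 with the replicate block, and 3 to 7 without single arrays. Same-numbered arrays did not deviate together (correlations -0.03, -0.01 and -0.01), so the replicate numbers were not treated as pairs. The block left 4 rises among the members, without Herpud1 and Edem3.

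Changes near 0 turned sign. After a second quantile normalisation the change was -0.0061 for Sec61a1 and -0.019 for Hspa5. Without single arrays it ranged from -0.0018 to 0.098 for Sec61b, -0.011 to 0.047 for Ssr1, -0.061 to 0.0039 for Hsp90b1 and -0.018 to 0.011 for Dnajc10. The same range was -0.056 to 0.015 for Pdia3, -0.079 to 0.060 for Canx, -0.0051 to 0.095 for Syvn1 and -0.12 to 0.053 for Derl3. None of these passed under any alternative run.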

Other observations

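Few genes outside the set carried the same elements. Of 17 genes on the arrays with an ERSE in a promoter window, the 8 members included, 2 rose, both outside the set and named after their values were seen. They were Ppm1l, a membrane-bound protein phosphatase (0.84; limma adjusted p = 0.000122), and Zfand2a, a zinc finger protein (0.31; limma adjusted p = 0.0186). Of 12 genes with ERSE-II, Herpud1 and Calhm6 (0.50) rose and the kinase Prkcz (-0.64) fell. Over all genes 7.45% rose and 7.22% fell, and counts this small were not tested against those shares. The median change was 0.02 over the ERSE genes and 0.07 over the ERSE-II genes, beside 0.01 over all genes.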
